A study of Homo sapiens with 9 samples.

Results

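The AP-1 genes and the other early-response genes of A549, an established human lung adenocarcinoma cell line, were followed across 9 RNA-seq libraries. The 10 genes were FOS, FOSL1, FOSL2, JUN, JUNB, JUND, EGR1, IER3, KLF6 and MYC, taken by symbol from the 58735 genes of the count table, and all 10 passed the filter on low counts in every comparison. The cells had been transfected with jetPRIME and 1 of 3 plasmids, namely the PC3 control plasmid, a plasmid for the long noncoding RNA LINC00996 (L996 libraries) or a plasmid for the long noncoding RNA AP001189.3 (RP11 libraries), with 3 libraries per group. The treatment labels of the control libraries read PC3.1, PC3.2 and PC3.3, whereas the paper names PC3.1 alone, and they were taken as replicates of a single control. All groups were transfections of the same line, and no untransfected cells were analysed here. Each lncRNA came on its own plasmid, so effects of the lncRNA, of the plasmid and of its transfection cannot be told apart. Wording such as "with LINC00996" names the group of libraries. The paper speaks of triplicate extractions and, in a general supplementary text, of biological replicates, without saying that each library came from its own culture. The p-values therefore measure the spread between these libraries, which may be technical.

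AP-1 is a dimer of a FOS family protein and a JUN family protein, or of JUN family proteins alone, that binds DNA at a short palindromic site. Most FOS and JUN genes, EGR1, KLF6, IER3 and MYC belong to the early-response genes, which are transcribed without new protein synthesis when growth factors, stress or inflammatory signals reach the nucleus through the MAP kinases, serum response factor or NF-kB. In epithelial cancer cells AP-1 is known for its part in growth, migration, matrix breakdown and cytokine production.

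Total counts per library ranged from 15272450 to 18125447. LINC00996 was read 4 to 9 times in each control library and 4373 to 5952 times in each L996 library, while AP001189.3 was read 0 to 2 times in the control libraries and 1660 to 2378 times in the RP11 libraries, so both labels matched the counts. All 10 epithelial and A549 markers exceeded 1 CPM (counts scaled to library size by TMM factors) in every library, and the markers of leukocytes, fibroblasts and endothelial cells summed to between 5.25 and 26.2 CPM per list. The endothelial sum was 11.8 to 13.1 CPM in the control, 5.25 to 6.60 CPM with LINC00996 and 7.41 to 9.57 CPM with AP001189.3, and the fibroblast sum 23.4 to 26.2, 16.4 to 18.1 and 21.6 to 24.8 CPM, while PTPRC, CD3E, DCN, VWF, KDR and TEK were each read at most 4 times per library. The sums came mostly from the remaining markers. Per library, COL1A1 had up to 362 reads, CD14 251, ITGAM 152, PECAM1 145, CDH5 82 and COL3A1 73. The leukocyte sum was 16.7 to 19.5 CPM in the control, 16.3 to 19.2 CPM with LINC00996 and 14.1 to 21.3 CPM with AP001189.3. The first L996 library stood apart from the other two, with a chi-square per gene of 22.4 and 33.3 against them, where every other pair of replicates gave 2.27 to 7.32. Across genes, the deviation of that library from the mean of all libraries correlated with GC content at a Spearman's rho of 0.44, against -0.25 and -0.44 in the other L996 libraries. In the RP11 libraries rho was 0.21 to 0.37 and in the control libraries -0.29 to 0.00046, so these groups also differed in their relation to GC content. Values without the first L996 library or with an offset for GC content are given below beside the results that they moved most.

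Against the control, 6 of the 10 genes fell in the L996 libraries and none rose. The 6 were FOS, FOSL2, JUN, JUND, KLF6 and IER3. Of all 16097 genes tested, 11.6% were called lower, which means an edgeR quasi-likelihood p of less than 0.05 after Benjamini-Hochberg adjustment. The median log2 fold change of the 10 genes was -0.46, and that of all tested genes was 0.01. In the RP11 libraries 7 of the 10 genes rose against the same control libraries and none fell. Those 7 were FOSL1, FOSL2, JUN, JUNB, EGR1, KLF6 and MYC, where 11.4% of the 16023 tested genes were called higher, and the median of the 10 genes was 0.29 against -0.0013 over all tested genes. At an unadjusted p under 0.05, edgeR also found 0 of the 10 genes higher with LINC00996 and 0 lower with AP001189.3, and DESeq2 called 0 in these directions. Both comparisons use the same 3 control libraries and are therefore not independent of each other. The 10 genes and the gene lists below were chosen with earlier results of these data known. Their counts beside the shares of all genes are therefore a description and not a test. In bulk RNA, a change in every cell and a change in the share of cells that respond cannot be told apart.

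**Figure D1:**
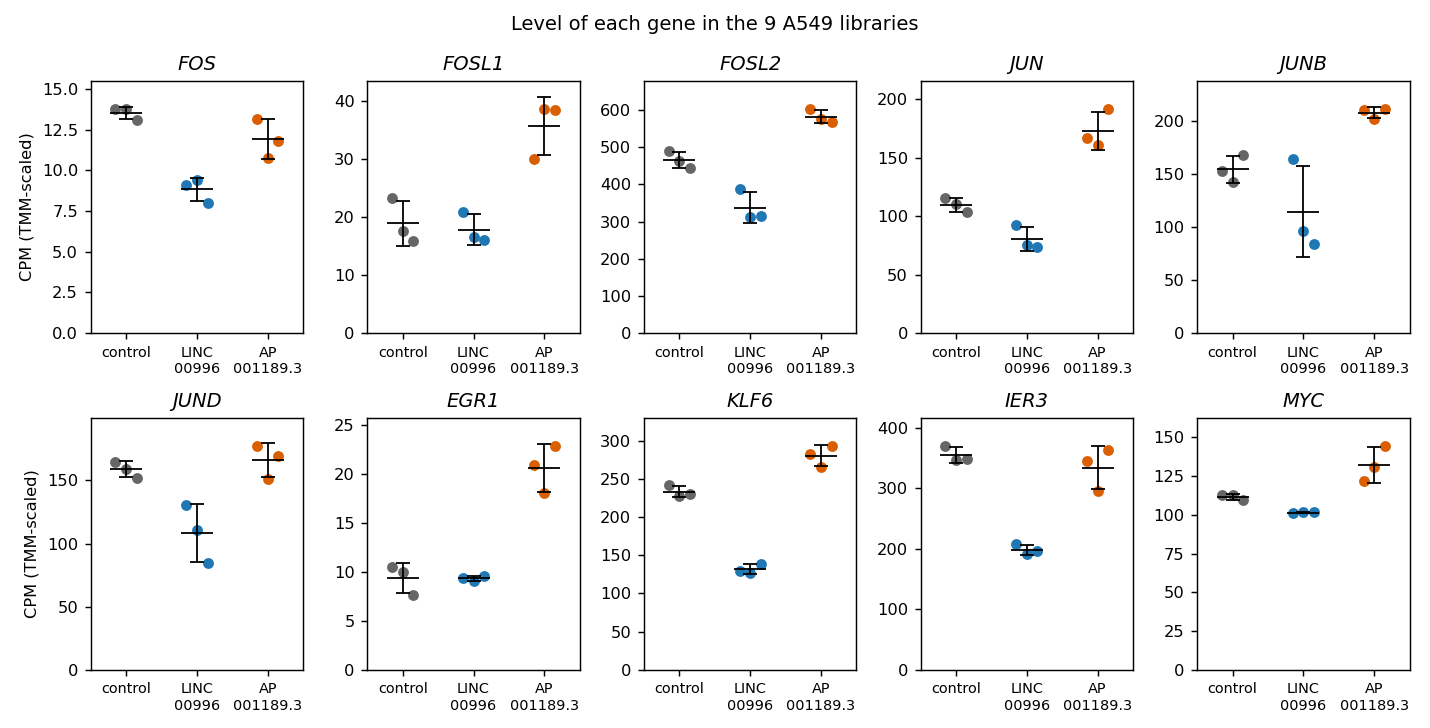
Level of each gene in CPM (vertical axis, from 0, own scale per gene) in the 3 control, 3 LINC00996 and 3 AP001189.3 libraries. Points are libraries in the order of their replicate number, and the bars give the mean and 1 SD. KLF6 and IER3 of the LINC00996 group lay below every other library, EGR1 and FOSL1 of the AP001189.3 group lay above every other library, and 1 LINC00996 library of JUNB lay among the controls.

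FOS, the founding member of its family and a short-lived partner of JUN, lies at chr14:75278774-75282230 on the plus strand (GRCh38, GENCODE 29) with up to 4 exons per transcript. Its level was 13.8, 13.8 and 13.1 CPM in the control libraries, 9.09, 9.39 and 8.005 CPM in the L996 libraries and 13.2, 10.7 and 11.8 CPM in the RP11 libraries. All 3 L996 libraries lay below all others, whereas control and RP11 overlapped. FOS fell by 34.9% with LINC00996 (log2 fold change -0.62, SE 0.13, adjusted p = 0.00638). With AP001189.3 the log2 fold change was -0.18 (95% interval -0.42 to 0.06, adjusted p = 0.299). The counts behind these values were low, at 148 to 234 per library.

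FOSL1, which encodes FRA1, a FOS relative without the transactivating end of FOS and prominent in invasive carcinoma cells, lies at chr11:65892049-65900573 on the minus strand. It stood at 23.3, 17.7 and 15.9 CPM in the control, 21.0, 16.6 and 16.01 CPM with LINC00996 and 30.0, 38.7 and 38.6 CPM with AP001189.3. The RP11 libraries lay above all others, and the control and L996 libraries overlapped. FOSL1 rose 1.89-fold with AP001189.3 (log2 fold change 0.92, SE 0.14, adjusted p = 0.000445). With LINC00996 the log2 fold change was -0.08, with a 95% interval from -0.45 to 0.28 that leaves changes of either sign possible.

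FOSL2, which encodes FRA2, lies at chr2:28392448-28417312 on the plus strand and had the most reads of the family. Its control libraries held 489.5, 463 and 445 CPM, its L996 libraries 386, 313 and 314 CPM and its RP11 libraries 603, 576 and 569 CPM. The 3 groups did not overlap. FOSL2 fell by 27.6% with LINC00996 (log2 fold change -0.47, SE 0.10, adjusted p = 0.00645) and rose 1.25-fold with AP001189.3 (log2 fold change 0.32, SE 0.05, adjusted p = 3.48e-05). The antisense gene FLJ31356 and the intronic gene AC104695.3 overlap it, and both were read at most 28 times per library.

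The promoters of FOS, JUN and EGR1 are shown because FOS fell with LINC00996, EGR1 rose with AP001189.3 and JUN did both. Each is a RefSeq sequence of GRCh38.p14, 5′ to 3′ on the strand of the gene, with 250 bases before the annotated start and 50 from it, and the capitals mark matches to the motifs that were searched. Sequences were matched for 7 of the 10 genes.
FOS promoter, chr14:75278578-75278877, plus strand: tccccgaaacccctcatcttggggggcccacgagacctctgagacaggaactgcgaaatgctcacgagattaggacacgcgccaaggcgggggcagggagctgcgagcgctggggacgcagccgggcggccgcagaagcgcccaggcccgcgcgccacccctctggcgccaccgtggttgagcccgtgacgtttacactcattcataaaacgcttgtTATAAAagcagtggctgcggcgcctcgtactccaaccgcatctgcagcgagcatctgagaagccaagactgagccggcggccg
JUN promoter, chr1:58783998-58784297, minus strand: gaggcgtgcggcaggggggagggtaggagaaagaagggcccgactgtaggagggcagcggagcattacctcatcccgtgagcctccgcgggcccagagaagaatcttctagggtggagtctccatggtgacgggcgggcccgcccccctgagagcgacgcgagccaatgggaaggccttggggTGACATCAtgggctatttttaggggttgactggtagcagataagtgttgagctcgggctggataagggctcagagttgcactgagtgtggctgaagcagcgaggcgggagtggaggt
EGR1 promoter, chr5:138465229-138465528, plus strand: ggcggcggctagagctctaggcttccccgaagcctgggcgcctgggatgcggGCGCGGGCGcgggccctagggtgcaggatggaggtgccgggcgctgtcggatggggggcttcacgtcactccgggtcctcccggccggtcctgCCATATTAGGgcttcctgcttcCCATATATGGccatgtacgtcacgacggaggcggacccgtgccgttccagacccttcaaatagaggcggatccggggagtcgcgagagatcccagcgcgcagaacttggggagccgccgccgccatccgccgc

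The search used the AP-1 site TGANTCA, the CRE-like site TGACNTCA, the EGR1 site GCGNGGGCG, the E-box CACGTG and the CArG box, which serum response factor binds, on both strands, and TATAAA on the given strand. Counting the RefSeq start as 1 and the base before it as -1, the FOS promoter held TATAAA at -33 to -28. JUN held a CRE-like site at -67 to -60, a sequence of the kind that JUN and ATF dimers bind. EGR1 held CArG boxes at -105 to -96 and at -83 to -74, and an EGR1 site at -198 to -190. Among the remaining promoters, FOSL2 held an AP-1 site at 5 to 11, JUNB TATAAA at -31 to -26, JUND a CRE-like site at -200 to -193, and KLF6 a CRE-like site, an EGR1 site and an E-box. Of 35116 RefSeq promoters of the same length, 7.71% held the AP-1 site, 7.72% the CRE-like site, 9.43% the EGR1 site, 7.26% the E-box, 7.33% TATAAA and 1.29% a CArG box. A match is a description of the letters only.

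JUN, the strongest activator among the JUN proteins, is a single-exon gene at chr1:58780788-58784327 on the minus strand. Its control libraries held 116, 110.2 and 103 CPM, its L996 libraries 92.6, 75.0 and 73.7 CPM and its RP11 libraries 167, 161 and 192 CPM. No library of a group overlapped with another group. JUN fell by 26.7% with LINC00996 (log2 fold change -0.45, SE 0.11, adjusted p = 0.0124) and rose 1.58-fold with AP001189.3 (log2 fold change 0.66, SE 0.06, adjusted p = 6.57e-08), where it ranked 31 of 16023 genes by p. The LINC00996 call was lost without the first control library (adjusted p = 0.0651), without the second (0.0588) or without the second L996 library (0.0649), while the log2 fold change stayed between -0.56 and -0.39 with each library left out.

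JUNB, which encodes a JUN protein that activates less strongly and can oppose JUN, is a single-exon gene at chr19:12791496-12793315 on the plus strand. It was found at 152, 143 and 168 CPM in the control, at 163, 95.6 and 83.6 CPM with LINC00996 and at 209.9, 201 and 211 CPM with AP001189.3. The first L996 library sat among the controls and the other two below them, and the RP11 libraries lay above all others. With LINC00996 the log2 fold change was -0.43 (95% interval -0.88 to 0.02, adjusted p = 0.157) over all 3 libraries and -0.78 without the first L996 library (adjusted p = 2.82e-09). An offset for GC content, fitted per library, gave -0.52 (adjusted p = 0.00983). With AP001189.3 JUNB rose 1.34-fold (log2 fold change 0.43, SE 0.06, adjusted p = 4.69e-06), and the GC offset reduced this to 0.18 (adjusted p = 0.0977). The longest JUNB transcript has 64.9% GC, and 96.3% of the tested genes had less. HOOK2 overlaps JUNB on the opposite strand and was read 248 to 398 times per library against 1508 to 3553 for JUNB, and reads of such a pair cannot be told apart if strand was not used in counting.

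JUND, which encodes the JUN protein that resting cells already hold, lies at chr19:18279760-18281622 on the minus strand. Its control libraries held 165, 159 and 152 CPM, its L996 libraries 131, 110.4 and 84.2 CPM and its RP11 libraries 177, 151 and 169 CPM. The L996 libraries were all below the others but spread widely among themselves, and control and RP11 overlapped. JUND fell by 31.8% with LINC00996 (log2 fold change -0.55, SE 0.14, adjusted p = 0.0129), and this call was lost without the first (adjusted p = 0.0589) or the second control library (0.0522). With AP001189.3 the log2 fold change was 0.06 (95% interval -0.06 to 0.18, adjusted p = 0.492). The GC offset turned this to -0.26 (adjusted p = 0.000725), and JUND, at 69.7% GC, exceeded 99.6% of the tested genes in GC content.

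**Figure D2:**
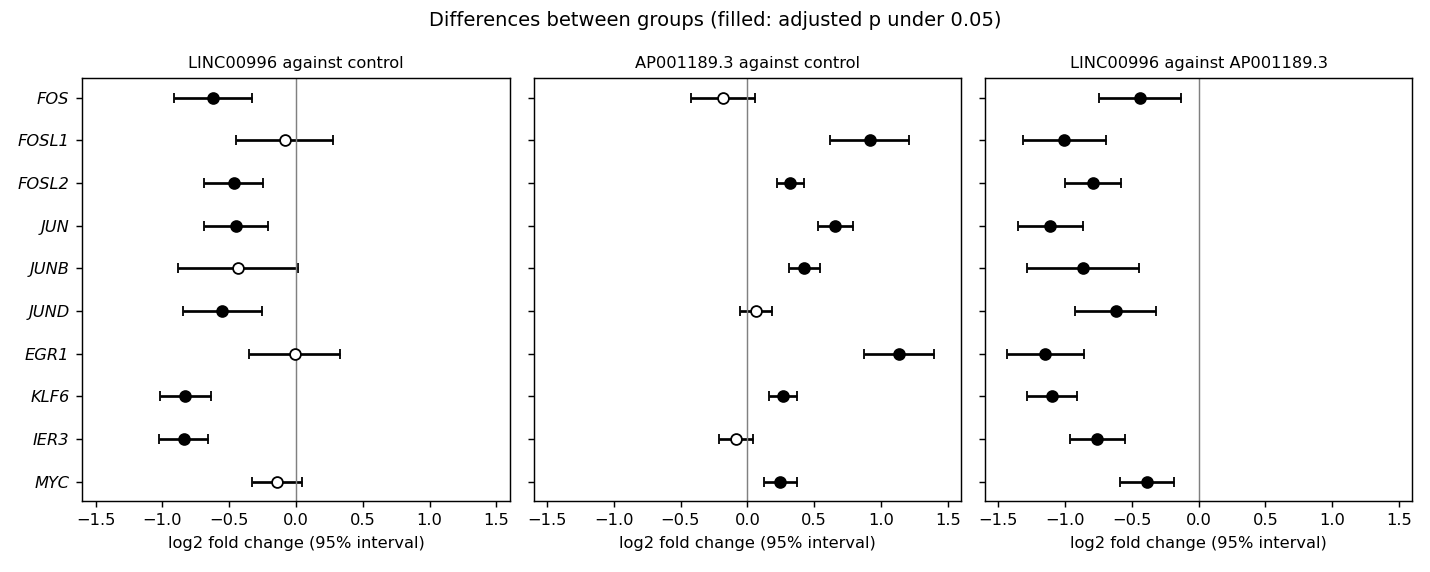
log2 fold change of each gene (horizontal axis) in the 3 comparisons, with 95% intervals. Filled points had an adjusted p under 0.05 by edgeR. With LINC00996 against control 6 genes were lower, with AP001189.3 against control 7 were higher, and all 10 were lower with LINC00996 than with AP001189.3.

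EGR1, a zinc finger activator that growth factors induce within minutes, lies at chr5:138465490-138469315 on the plus strand with up to 2 exons. It had the largest change of the 10 genes with AP001189.3. Its level was 10.5, 10.02 and 7.65 CPM in the control, 9.36, 9.01 and 9.57 CPM with LINC00996 and 20.9, 18.01 and 22.9 CPM with AP001189.3. The RP11 libraries stood clear of all others, and the L996 libraries lay within the range of the control. EGR1 rose 2.20-fold with AP001189.3 (log2 fold change 1.14, SE 0.13, adjusted p = 3.92e-07). With LINC00996 the log2 fold change was -0.01 (95% interval -0.35 to 0.33, adjusted p = 0.974), on counts of 133 to 178 per library.

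KLF6, a zinc finger factor that binds GC-rich sites and is known as a tumor suppressor in several carcinomas, lies at chr10:3775996-3785281 on the minus strand. It stood at 242, 228 and 230 CPM in the control, 129, 127 and 139 CPM with LINC00996 and 283, 266 and 294 CPM with AP001189.3. None of the groups overlapped, and the replicates lay close together. KLF6 fell by 43.7% with LINC00996 (log2 fold change -0.83, SE 0.09, adjusted p = 5.49e-05) and rose 1.20-fold with AP001189.3 (log2 fold change 0.27, SE 0.05, adjusted p = 0.000522).

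IER3, a short protein induced by NF-kB and growth factors that affects cell survival, lies at chr6:30743199-30744554 on the minus strand. Control libraries held 370, 346 and 349 CPM, L996 libraries 207, 191 and 196 CPM and RP11 libraries 345, 295 and 362 CPM. The L996 libraries lay far below the rest, and control and RP11 overlapped. IER3 fell by 44.2% with LINC00996 (log2 fold change -0.84, SE 0.08, adjusted p = 3.86e-05), the smallest adjusted p of the 10 genes in this comparison. Its log2 fold change with AP001189.3 was -0.09 (95% interval -0.21 to 0.04, adjusted p = 0.352), and -0.24 (adjusted p = 0.00807) with the GC offset or -0.20 (adjusted p = 0.0194) with an offset for gene length. Its antisense gene IER3-AS1 was read at most 3 times per library.

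MYC, the activator of ribosome biogenesis and growth genes that pairs with MAX, was found at 113, 112 and 109 CPM in the control, 101, 102 and 102 CPM with LINC00996 and 122, 131 and 145 CPM with AP001189.3. The 3 groups did not overlap. With LINC00996 the log2 fold change was -0.14 (95% interval -0.33 to 0.05, adjusted p = 0.277), so that the separation of the libraries was not matched by a call. MYC rose 1.19-fold with AP001189.3 (log2 fold change 0.25, SE 0.06, adjusted p = 0.00445), and this call was lost without the third RP11 library (adjusted p = 0.077) and with the GC offset (log2 fold change 0.16, adjusted p = 0.0569).

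Counted by overlap alone, 7 of the 10 genes had every L996 library below every control library, where 20.7% of all tested genes did. The 7 were the 6 called genes and MYC. With AP001189.3, 7 of the 10 lay entirely above the control, where 18.5% of tested genes did, and these were the 7 that were called. Without the first L996 library, 7 genes were called lower with LINC00996, JUNB being the added gene. When all 9 libraries were fitted together, so that the wider spread of the L996 libraries entered every test, EGR1, FOSL1 and JUN remained called with AP001189.3, and FOSL2 (adjusted p = 0.0576), KLF6 (0.0664), MYC (0.11) and JUNB (0.274) did not.

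The direct comparison addressed whether these genes differed between the overexpression groups, where lncRNA and plasmid cannot be told apart. All 10 genes were called lower in the L996 than in the RP11 libraries, with no overlap for any of them, and DESeq2 called 9. Of 16095 tested genes, 12.1% were called lower and 19.7% lay lower without overlap. The median log2 difference of the 10 genes, LINC00996 minus AP001189.3, was -0.83, and that of all tested genes was 0.02. EGR1 was 2.22-fold lower (log2 difference -1.15, SE 0.13, adjusted p = 0.000105), JUN 2.16-fold lower (-1.11, SE 0.11, adjusted p = 4.1e-05), KLF6 2.14-fold lower (-1.10, SE 0.09, adjusted p = 6.74e-06) and FOSL1 2.01-fold lower (-1.01, SE 0.14, adjusted p = 0.000499). The differences of JUNB (-0.87), FOSL2 (-0.79), IER3 (-0.76) and JUND (-0.62) had adjusted p-values of 0.00817 or less. JUNB was -1.21 without the first L996 library and JUND -0.37 with the GC offset, and both stayed called. MYC (-0.39, adjusted p = 0.0115) and FOS (-0.44, adjusted p = 0.044) were nearest to the threshold. The FOS call was lost with 5 of the 6 libraries left out in turn, with DESeq2 (adjusted p = 0.0798), with library size alone (0.0729), with genes of low count kept (0.0671) and with the length offset (0.054), and the MYC call without the second L996 library (0.0529) or without the second (0.06) or the third RP11 library (0.0963). JUND lost its call without the first RP11 library (0.0612).

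**Figure D3:**
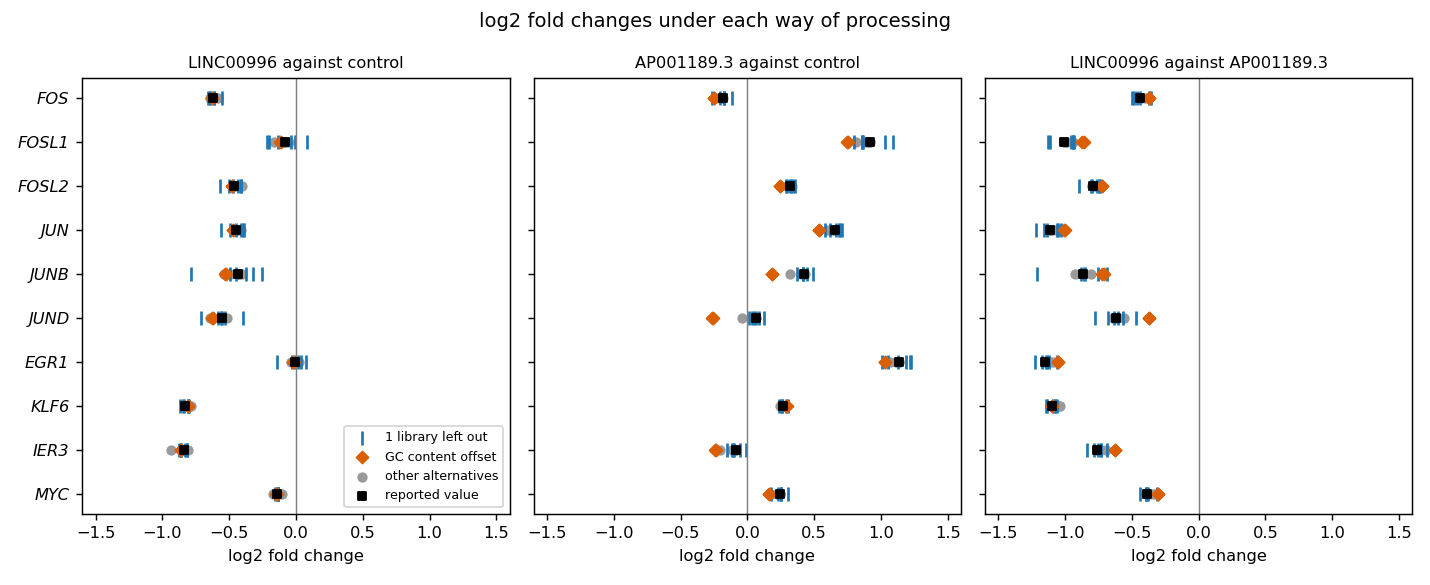
log2 fold change of each gene (horizontal axis) as reported, with each library left out in turn, with the GC content offset and under the other alternatives, in the 3 comparisons. JUNB with LINC00996 ranged from -0.78 to -0.25 and JUND with AP001189.3 from -0.26 to 0.13, whereas KLF6 with LINC00996 stayed between -0.87 and -0.79.

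Levels of different genes were compared as FPKM, the deposited values per gene length. In the control, the mean level ran from IER3 (259.7 ± 10.04 FPKM, SD, n = 3) through JUND (84.6 ± 3.54), JUNB (84.1 ± 6.84), FOSL2 (64.6 ± 3.22), KLF6 (37.7 ± 1.26), MYC (36.9 ± 0.721), JUN (30.7 ± 1.78), FOSL1 (9.96 ± 2.05) and FOS (4.15 ± 0.121) to EGR1 (2.97 ± 0.484). Within this order JUND and JUNB, and likewise KLF6 and MYC, overlapped between libraries, and the other neighbours did not. IER3 exceeded 99.7% and EGR1 69.1% of the 29332 genes above 0 in the control. In the L996 libraries JUNB (62.1 ± 23.0), JUND (57.6 ± 12.1) and FOSL2 (46.7 ± 5.57) overlapped, KLF6 (21.2 ± 1.10) came after MYC (33.45 ± 0.289) and overlapped with JUN (22.5 ± 2.84), and FOS (2.70 ± 0.218) was last, overlapping with EGR1 (2.94 ± 0.0913). In the RP11 libraries JUN (48.5 ± 4.61), KLF6 (45.3 ± 2.25) and MYC (43.7 ± 3.91) overlapped, as did JUND (88.3 ± 7.01) and FOSL2 (80.7 ± 2.30).

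The FOS family, summed over FOS, FOSL1 and FOSL2, stood at 84.5, 77.8 and 73.9 FPKM in the control, 66.8, 55.0 and 54.4 FPKM with LINC00996 and 103, 104 and 103 FPKM with AP001189.3. FOSL2 made up 82.1% ± 1.46 of this sum in the control, 79.5% ± 0.551 with LINC00996 and 78.2% ± 2.24 with AP001189.3 (SD, n = 3). FOSL1 made up 12.6% ± 1.68, 15.9% ± 0.451 and 18.2% ± 2.54 in the same order, and FOS 5.28% ± 0.242, 4.62% ± 0.559 and 3.53% ± 0.360. FRA2 transcripts thus formed most of the FOS family in every group. The JUN family summed to 204, 193 and 201 FPKM in the control, 183, 132 and 111 FPKM with LINC00996 and 255, 235.5 and 259 FPKM with AP001189.3. JUN took 15.4% ± 0.896, 16.2% ± 2.26 and 19.4% ± 1.27 of that sum, JUNB 42.1% ± 2.84, 42.9% ± 4.65 and 45.3% ± 1.17, and JUND 42.4% ± 1.87, 40.9% ± 3.48 and 35.3% ± 1.47. The ratio of the JUN to the FOS family sum was 2.54 ± 0.161 in the control, 2.39 ± 0.350 with LINC00996 and 2.42 ± 0.132 with AP001189.3, with ranges that overlapped. Differences in these shares were not tested.

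**Figure D4:**
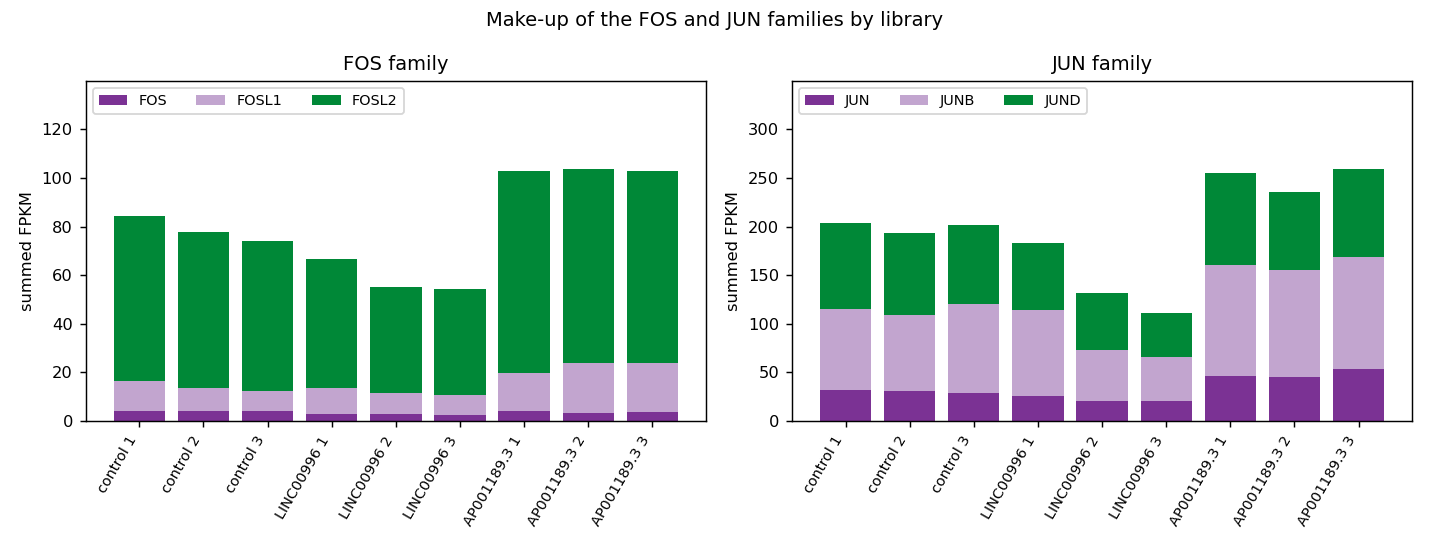
Summed FPKM (vertical axis, from 0) of the FOS family (left) and the JUN family (right) in each of the 9 libraries, split by gene. FOSL2 forms most of every FOS bar, and the JUN bars of the L996 libraries, at 111 to 183 FPKM, all lie below the 193 to 204 FPKM of the control.

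Of the other genes of the AP-1 family (bZIP genes of the BATF, ATF and MAF groups, FOSB and JDP2), 12 of 13 were tested. With LINC00996 4 fell and 0 rose by edgeR (0 also at an unadjusted p under 0.05 and with DESeq2), with a list median of -0.28 that became -0.51 without the first L996 library. Without the first control library 2 genes of the list were called lower. Those 4 were ATF3, a stress-induced partner of JUN, which fell by 29.3% (adjusted p = 0.00898), BATF2, an interferon-induced bZIP factor (-45.7%, adjusted p = 7.64e-05), MAFF (-45.1%, adjusted p = 0.00181) and MAF (-49.7%, adjusted p = 0.0358). With AP001189.3 7 rose, and ATF2 was called lower (log2 fold change -0.22; named after its value was seen), with a list median of 0.38 that became 0.17 with the GC offset. With DESeq2, with the GC offset, in the fit of all 9 libraries, and without the second control or the first or second RP11 library, 0 genes of the list were called lower. ATF3 rose 2.16-fold (adjusted p = 7.28e-09), from 33.2, 28.9 and 30.9 CPM in the control to 58.1, 66.5 and 76.4 CPM, and was 23.6, 21.4 and 20.8 CPM with LINC00996. BATF2 rose 1.41-fold (adjusted p = 7.05e-07), MAFF 1.25-fold (adjusted p = 0.00103) and MAF 1.75-fold (adjusted p = 0.0101). Of all tested genes, 22.3% were called in either direction with LINC00996 and 19.8% with AP001189.3.

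Of 22 other early-response genes tested with LINC00996, 12 fell and 1 rose (GADD45B, log2 fold change 0.55; named after its value was seen), with a median of -0.43. Without the second or the third control library 0 rose, and without the third L996 library 2 rose. The shares of all tested genes called in either direction were 22.3% with LINC00996 and 19.8% with AP001189.3. KLF4, an epithelial zinc finger factor, stood at 74.7, 68.8 and 71.6 CPM in the control and 34.0, 35.1 and 35.3 CPM with LINC00996, so that it fell by 51.5% (adjusted p = 2.03e-05). KLF2 fell by 54.2% (adjusted p = 0.000376), the small GTPase gene RHOB fell by 44.3% (adjusted p = 0.000114) and TRIB1, which encodes a scaffold for protein degradation, fell by 42.8% (adjusted p = 0.0001). With AP001189.3 13 of 23 rose and 0 fell by edgeR (0 also at an unadjusted p under 0.05 and with DESeq2), with a median of 0.34, and the GC offset gave 14 that rose and 2 that fell. CYR61 (CCN1), a secreted matricellular protein gene, went from 16.3, 15.1 and 16.7 CPM to 27.3, 29.5 and 31.0 CPM, a 1.82-fold rise (adjusted p = 3.09e-07). IER2 rose 1.53-fold (adjusted p = 6.46e-07), and KLF4 1.27-fold (adjusted p = 0.000172). KLF2 (log2 fold change -0.07, adjusted p = 0.673) and TRIB1 (-0.03, adjusted p = 0.747) were not called with AP001189.3, nor were CYR61 (-0.05, adjusted p = 0.811) and IER2 (0.27, adjusted p = 0.214) with LINC00996.

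Among 20 tested genes that AP-1 is known to activate in other settings, 13 fell with LINC00996 and 0 rose by edgeR (0 also at an unadjusted p under 0.05 and with DESeq2), with a median of -0.66. Over all tested genes, the shares called in either direction were 22.3% with LINC00996 and 19.8% with AP001189.3. IL6, which encodes the cytokine interleukin 6, stood at 18.8, 13.7 and 14.7 CPM in the control and 4.598, 2.16 and 3.84 CPM with LINC00996, so that it fell by 77.3% (adjusted p = 7.14e-05). PLAUR, the urokinase receptor gene, fell by 50.8% (adjusted p = 1.65e-05), and ITGA2, the alpha chain of a collagen receptor, fell by 51.5% (adjusted p = 7.14e-05). With AP001189.3, 7 of the 20 rose and 3 fell, with a median of 0.20. These counts became 3 and 0 without the second control library, 4 and 0 without the second RP11 library, 4 and 3 without the first, and 5 and 1 without the third. LIF, a cytokine of the interleukin 6 family, rose 1.30-fold (adjusted p = 2.1e-05) and PLAUR 1.24-fold (adjusted p = 0.000104). The 3 that fell were ITGA2 (log2 fold change -0.15, adjusted p = 0.0258) and, named after their values were seen, TIMP1 (-0.19) and PTGS2 (-0.19).

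Upstream of these genes, the corepressors of EGR1 and serum response factor with its partners made up a list of 8. NAB1 fell by 25.2% with LINC00996 (adjusted p = 0.0251), and the other 7 were not called. This call was lost without the second or the third control library or the second L996 library. With AP001189.3 NAB2, a corepressor that EGR1 itself induces, rose 1.54-fold (adjusted p = 1.48e-05), SRF 1.28-fold (adjusted p = 0.00222) and ELK1, a partner of SRF, 1.21-fold (adjusted p = 0.0142), whereas NAB1 fell by 13.6% (adjusted p = 0.0141) and MRTFB by 14.2% (adjusted p = 0.00982). The 2 falls were lost without the second control library or the second or the third RP11 library, and with the GC offset 1 gene of the list rose and 1 fell. Of 16 genes of the MAP kinase cascades, BRAF fell by 27.5% (adjusted p = 0.0273) and MAP2K2 by 25.7% (adjusted p = 0.0291) with LINC00996, and MAP2K1 rose 1.12-fold (adjusted p = 0.0417) with AP001189.3. Neither fall was called without the first or second control library or the second L996 library. No gene of this list was called higher with AP001189.3 by DESeq2, by library size alone or with the length or GC offset, nor without the second or the third control library or the first RP11 library. MAP2K7 (log2 fold change 0.30, adjusted p = 0.174) was not called with LINC00996, nor was MAPK9 (-0.18, adjusted p = 0.072) with AP001189.3. The shares called in this list were 12.5% and 6.25%, where those of all tested genes were 22.3% and 19.8%. With AP001189.3, 3 genes of the list rose and 2 fell without the first control library, and 3 fell with library size alone.

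MYC works within a network of proteins that pair with MAX or compete for it. The network list also held other genes, namely MLX, MLXIP, MLXIPL, FBXW7 and MYCBP. Of 13 tested genes of the network, 3 fell and 2 rose with LINC00996, or 38.5% against 22.3% of all tested genes, and 1 fell without any 1 of the control libraries. The genes that rose numbered 1 without the second control, the third control or the second L996 library, and 3 without the third L996 library. MXD1, which competes with MYC for MAX, went from 32.2, 34.9 and 32.4 CPM in the control to 9.58, 12.7 and 10.8 CPM, so that it fell by 66.9% (adjusted p = 1.05e-05), and MAX fell by 23.4% (adjusted p = 0.0178). The third to fall was MXI1 (log2 fold change -0.43; named after its value was seen). MXD3 rose 2.73-fold (adjusted p = 0.000839) and MYCBP 1.48-fold (adjusted p = 0.012). With AP001189.3 MXD3 (1.62-fold, adjusted p = 0.00119), MXD1 (1.32-fold, adjusted p = 0.000729), MNT (1.32-fold, adjusted p = 0.000813) and MAX (1.15-fold, adjusted p = 0.0401) rose, and 0 fell by edgeR (1 at an unadjusted p under 0.05, 0 called by DESeq2), or 30.8% called against 19.8% of all tested genes. Of 34 MYC target genes, mostly of ribosome biogenesis, 16 rose and 0 fell by edgeR with LINC00996 (median 0.32), a group in which MYC was not called. Without the second control library 10 rose, and the GC offset gave 21 that rose and 1 that fell. At an unadjusted p under 0.05, 2 of these targets were lower, and DESeq2 called 0 lower. HSPE1, a mitochondrial chaperonin gene whose counts processed pseudogenes may affect (not tested), rose 2.87-fold (adjusted p = 6.06e-06), CAD, an enzyme of pyrimidine synthesis, 1.51-fold (adjusted p = 0.00188), HSPD1 1.42-fold (adjusted p = 0.0025) and NCL, which encodes nucleolin, 1.36-fold (adjusted p = 0.00218). With AP001189.3 8 of the 34 rose and 4 fell, with a median of -0.01. The counts were 5 and 3 without the second control library, 4 and 1 without the second RP11 library and 3 and 4 without the third, and the falls were 2 without the first RP11 or the third control library. HSPE1 (1.70-fold, adjusted p = 2.27e-06) and WDR74 (1.65-fold, adjusted p = 4.45e-05) had the smallest p.

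**Figure D5:**
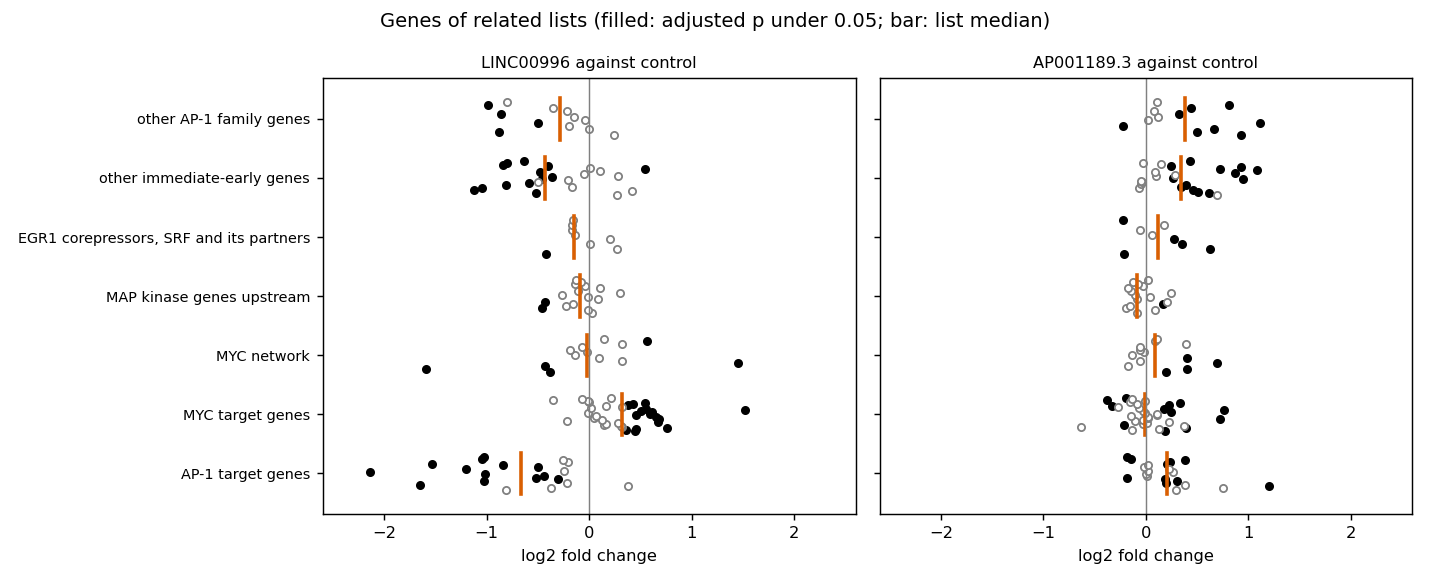
log2 fold change (horizontal axis) of every tested gene of the 7 related lists against control, for LINC00996 (left) and AP001189.3 (right). Each point is a gene, filled where the adjusted p was under 0.05, and the bar is the list median. The medians with LINC00996 ran from -0.66 in AP-1 target genes to 0.32 in MYC target genes, and those with AP001189.3 from -0.08 to 0.38, the latter in the other AP-1 family genes. With the GC offset their median was 0.17, below the 0.25 of the other early-response genes.

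In the direct comparison, 17 of 20 AP-1 targets, 17 of 22 early-response genes and 6 of 12 other AP-1 family genes were lower with LINC00996 than with AP001189.3, and 0 genes of these lists were higher by edgeR (0 also at an unadjusted p under 0.05 and with DESeq2), while 21.4% of all tested genes were called in either direction. Of the MYC targets, 15 of 34 were higher and 0 lower by edgeR (0 also at an unadjusted p under 0.05 and with DESeq2). This count was 6 without the first or the second RP11 library, 8 without the third and 9 without the second L996 library, and 1 target was lower without the first L996 library. With the GC offset 22 MYC targets were higher, and 18 AP-1 targets, 18 early-response genes, 7 other AP-1 family genes and 4 of the list with SRF were lower. The list counts moved with the fit. Without the first L996 library, 17 AP-1 targets, 13 early-response genes and 7 other AP-1 family genes fell with LINC00996, and 20 MYC targets rose and 1 fell. In that fit 4 MAP kinase genes fell and 1 rose, and 4 genes of the MYC network fell and 2 rose. With the GC offset, 17 AP-1 targets, 12 early-response genes, 6 other AP-1 family genes, 4 MAP kinase genes and 4 of the MYC network fell with LINC00996, while 4 early-response genes, 3 of the MYC network and 1 MAP kinase gene rose. With all 9 libraries in 1 fit, the genes that rose with AP001189.3 numbered 2 of the other AP-1 family, 9 early-response genes, 2 AP-1 targets, 2 MYC targets, 1 of the list with SRF and 0 of the MYC network and the MAP kinases. With the GC offset, those that rose with AP001189.3 were 6 other AP-1 family genes, 14 early-response genes, 5 AP-1 targets, 4 MYC targets, 3 of the MYC network and 1 of the list with SRF. Those that fell were 6 MYC targets, 2 early-response genes and 1 each of the AP-1 targets, the MYC network, the MAP kinases and the list with SRF. Epithelial marker genes moved as well, with summed levels of 1.36e+04 to 1.37e+04 CPM in the control, 1.75e+04 to 1.99e+04 CPM with LINC00996 and 1.46e+04 to 1.53e+04 CPM with AP001189.3, and their part in these results was not tested.

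Genes with the most similar pattern were sought for the 3 members with the smallest adjusted p with LINC00996, by Pearson's r of log2 CPM over the 9 libraries among 9594 protein-coding genes whose mean was 10 CPM or more. The 9 libraries share 3 group means, so r describes mostly those. IER3 was most like RASSF5 (r = 0.993), HOXB9 (0.990) and XAF1 (0.982). KLF6 was most like PML (0.997), the chemokine gene CXCL2 (0.996) and MAP3K8 (0.995), and the mean level of each of these 3 was lowest with LINC00996 and highest with AP001189.3. PML, which encodes the scaffold of nuclear bodies, had mean levels of 224 CPM in the control, 127 CPM with LINC00996 and 275 CPM with AP001189.3, and CXCL2 had 232, 145 and 273 CPM. FOS was most like KIF21B (0.993), TRIB3 (0.975) and FAM83A (0.974). TRIB3, a stress-induced pseudokinase gene, had mean levels of 133, 89.6 and 123 CPM in the same order.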

How the data were processed

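Poly(A) RNA of 9 A549 libraries was sequenced as 150 bp paired-end reads. According to the methods and the submitters' processing notes, alignment to GRCh38 used HISAT2 2.0.5 and counting used featureCounts 1.5.0-p3, the strand setting not being given in the sources used here. The authors deposited raw counts per gene and FPKM values, which are counts per gene length and library total. FPKM served to compare levels between genes and to sum the FOS and JUN families, without a test. Gene coordinates equalled GENCODE 29 for 58724 of 58735 genes.

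Each comparison was fitted on its own 6 libraries with edgeR 4.0.16 (R 4.3.3), using filterByExpr, TMM factors and its quasi-likelihood test with robust dispersions. A gene was called where p, adjusted by Benjamini-Hochberg over all tested genes, was under 0.05. The members and gene lists were chosen with earlier results of these data known. Text names all members, from each list the 4 genes with the smallest adjusted p with LINC00996 and the 2 with AP001189.3, and the 3 genes most like each of the 3 members with the smallest adjusted p, except 2 list genes that are not reported here. Alternatives tried were DESeq2 1.42.0, scaling by library size, no filter, 1 joint fit of all 9 libraries, a minimum of 10 counts per library, offsets for gene length and GC content (loess, span 0.75), a replicate block, and each library left out. The fits were tested on simulated data. Counts of lists under each alternative were added after seeing the data.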

Additional observations from a re-analysis of the deposited data

How the results depend on the processing

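Of the values of the 10 genes under 15 alternatives per comparison, 135 of those with LINC00996, 137 with AP001189.3 and 137 of the direct comparison kept both direction and side of the threshold, and no scaling moved the median of all genes by over 0.1. With LINC00996, values near 0 changed sign, namely EGR1 under library size alone (0.025), FOSL1 (0.086) and EGR1 (0.073) without the first control library, and EGR1 without the second control (0.04) or the second L996 library (0.02). With each library left out, EGR1 ran from -0.14 to 0.073 and FOSL1 from -0.22 to 0.086. With AP001189.3, JUND turned to -0.041 with the length offset and to -0.26 with the GC offset, with or without the replicate block. The members called lower there were 1 with the length offset and 2 with the GC offset, with or without the block, and those called higher were 3 in the fit of all 9 libraries. All-gene calls were 3588, 3180 and 3452 for LINC00996, AP001189.3 and the direct comparison. The GC offset gave 6014 and 5966 in the first and last, and 5994 and 5936 with the block added, and the fit of all 9 libraries gave 437 with AP001189.3. With each library left out they ran from 1925 to 5481, 1914 to 3598 and 1840 to 6828, the highest of the first and last being without the first L996 library. Members called lower with LINC00996 then numbered 4 to 7, higher with AP001189.3 6 to 7, and lower in the direct comparison 8 to 10. A replicate block, tried because groups share replicate numbers, left 6, 7 and 10 members called and gave 4500, 3467 and 3772 calls. Same-numbered control and L996 libraries correlated at 0.171, 0.0264 and 0.1, and those of control and RP11 at 0.0523, -0.0189 and 0.0338. Those of L996 and RP11 gave 0.0872, 0.0199 and 0.0568. The first libraries correlated best with each other, and in each group the first had the highest rho with GC content. Not every library correlated best with its own number, so the numbers were not taken as pairs. The causes were not tested.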
